A study of Mus musculus with 6 samples.

Results

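The ELAV-like family is a set of 4 RNA-binding proteins, Elavl1 to Elavl4, and all 4 genes were measured among the 16504 named genes of the arrays. They were taken as every probe whose annotated symbol was a family member, which gave 5 of the 22575 probes: 2 for Elavl1 and 1 each for Elavl2, Elavl3 and Elavl4. The family was chosen because Elavl4 differed strongly between the fiber stages. The ratios of Elavl4 are therefore given as a description, with no test. ELAV proteins bind AU-rich stretches in the untranslated ends of messenger RNAs and are known for stabilising those messages and promoting their translation. Elavl1, also called HuR, is made in nearly all cells and shuttles between nucleus and cytoplasm. Elavl2 (HuB), Elavl3 (HuC) and Elavl4 (HuD) are best known from neurons, where they also guide splicing.

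RNA of mature fiber cells was compared with RNA of elongating fiber cells on 6 two-colour arrays. The mouse lens grows by adding elongating fibers at its surface, and older fibers mature toward the centre and lose their nuclei. Both zones were cut by laser capture from paraffin sections 5 µm thick of lenses from the GFP transgenic mouse strain TgN(GFPU)5Nagy, so the transgene was shared by both sides of every ratio. The border between the zones was placed from an abrupt change in the GFP pattern seen by confocal microscopy. Mature fibers were in channel 1 and elongating fibers in channel 2 on arrays lens249, lens487 and lens493, and the channels were exchanged on arrays lens250, lens488 and lens455. For lens249 and lens250 the labels also give postnatal day 5, pooled littermates, at least 200 cells and about 40 slices. Nothing says which arrays came from separate animals or extracts, so the p-values below measure the spread between arrays, which may be technical.

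Each value is a log ratio of the 2 channels, in the deposited log units, whose base is not stated. The sign was reversed for lens250, lens488 and lens455, so all 6 values of a gene run the same way. The numerator is not stated either. With channel 1 as numerator a positive value is a higher level in mature fibers, and with channel 2 as numerator it is a lower one. The positive side is here the side of Dnase2b, the nuclease that degrades nuclear DNA in maturing fibers (1.81 ± 0.30, SD, n = 6), and the negative side that of Cdh2, N-cadherin (-1.78 ± 0.54). Folds depend on the base, and are given as readings. The deposited values reached a size of 4.57, which would be 23.8-fold if log2, 96.5-fold if natural log and 37154-fold if log10. A ratio holds no level, so whether a transcript was abundant in either zone, or whether lens fiber markers were present in both, could not be read from these values. In RNA from cut zones, a difference per cell and a difference in the share of cells that make the RNA cannot be told apart.

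Turned to one direction, arrays differed in how alike they were. The opposite orientations lens487 and lens488 correlated across features with r = 0.61 (rho = 0.36), lens493 and lens455 with r = 0.45 (rho = 0.22), and lens249 and lens250, which have consecutive title numbers, with r = 0.14 (rho = -0.0043). The other 6 combinations of opposite orientation had r between 0.04 and 0.16, and the 6 of one orientation between 0.12 and 0.34. Features are not independent replicates, so these values carry no p. The labels do not say whether any arrays share an RNA extract, and arrays that do would count as 1 replicate.

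The upstream sequences of 3 start sites are shown for the family member that differed and for its ubiquitous relative. They are the 250 bases before annotated starts of Elavl4 and Elavl1, from RefSeq on build GRCm38.p6, minus strand, read 5′ to 3′. Capitals mark matches to the CCAAT box (CCAAT or ATTGG), the TATA box (TATAAA or TTTATA) and the half-site of the lens factor Maf (TGCTGA or TCAGCA), searched on both strands. The letters ACAAT or ATTGT, a core of Sox sites, were searched as well and are left in lower case.
Elavl4, outermost start, chr4:110351912-110352161: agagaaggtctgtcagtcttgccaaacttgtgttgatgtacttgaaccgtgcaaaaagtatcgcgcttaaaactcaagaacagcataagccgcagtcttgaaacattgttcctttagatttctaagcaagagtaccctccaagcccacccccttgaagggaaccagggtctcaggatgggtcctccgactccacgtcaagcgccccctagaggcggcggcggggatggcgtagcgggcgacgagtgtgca
Elavl4, next start, chr4:110287528-110287777: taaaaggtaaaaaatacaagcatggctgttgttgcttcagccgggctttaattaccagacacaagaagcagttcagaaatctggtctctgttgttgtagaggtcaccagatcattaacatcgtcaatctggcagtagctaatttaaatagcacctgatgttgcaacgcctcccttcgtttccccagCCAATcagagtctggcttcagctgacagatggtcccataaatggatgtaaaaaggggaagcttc
Elavl1, chr8:4325101-4325350: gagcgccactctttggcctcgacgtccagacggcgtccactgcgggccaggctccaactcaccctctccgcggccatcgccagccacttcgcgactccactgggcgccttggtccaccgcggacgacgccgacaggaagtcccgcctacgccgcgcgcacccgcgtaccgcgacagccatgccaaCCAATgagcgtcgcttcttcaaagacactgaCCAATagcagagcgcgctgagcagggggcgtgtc
The table of start sites held 4 windows for Elavl4, 6 for Elavl2 and 1 each for Elavl1 and Elavl3, 12 in all. The 2 Elavl4 starts shown lie 64384 bases apart, and the array probe does not tell which start was in use. The outermost window held 14 CpG dinucleotides and no match to the capitalised motifs, and the next one held 4 CpG and 1 CCAAT box. The Elavl1 window held 31 CpG and 2 CCAAT boxes, while the median over 32851 such windows was 6 CpG. Of all windows 33.8% held a CCAAT box, 12.4% a TATA box, 16.1% a Maf half-site and 27.7% the Sox core. A Maf half-site was in 1 of the 4 Elavl4 windows, which overlaps the second sequence, and in 0 of the 8 windows of the other members. The Sox core was in 2 of the 4 Elavl4 windows and also in 1 Elavl2 window. A TATA box was only in the Elavl3 window among the 12. These matches describe letters and say nothing of use in the lens.

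Elavl4, the HuD protein of neurons, stood far from 0 on every array and on one side. Its turned log ratios were 1.20, 0.86 and 2.69 on lens249, lens487 and lens493, with mature fibers in channel 1, and 1.16, 1.09 and 2.39 on lens250, lens488 and lens455, with elongating fibers in channel 1. Its values on lens493 and lens455 lay apart from the other 4, which fell within 0.34 of one another. The mean was 1.57 ± 0.77 (SD, n = 6), on the side of Dnase2b. Read as log2, that is a 2.96-fold difference between the fiber stages, as natural log 4.79-fold and as log10 36.8-fold. Without lens493 and lens455 the mean of the 4 remaining arrays was 1.08. Averaged over pairs of opposite orientation, it was 1.18 for lens249 with lens250 and 0.97 for lens487 with lens488, which have consecutive titles. It was 2.54 for lens455 with lens493, the arrays left over.

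Ranked within each array, Elavl4 was among the outermost features of 19624. It was 3rd from the positive end on lens493, 10th on lens455, 33rd on lens249, 144th on lens488, 151st on lens487 and 515th on lens250. By its mean only 4 features lay further on the positive side, and 6 lay further from 0 on either side. The SD over features was 0.41 on lens493 and 0.35 on lens455, and 0.29, 0.31, 0.44 and 0.35 on lens249, lens487, lens250 and lens488. In units of each array's SD, Elavl4 was at 6.51 and 6.75 on lens493 and lens455, and between 2.63 and 4.07 on the others. These ranks describe the gene for which the family was chosen and support nothing further.

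**Figure D1:**
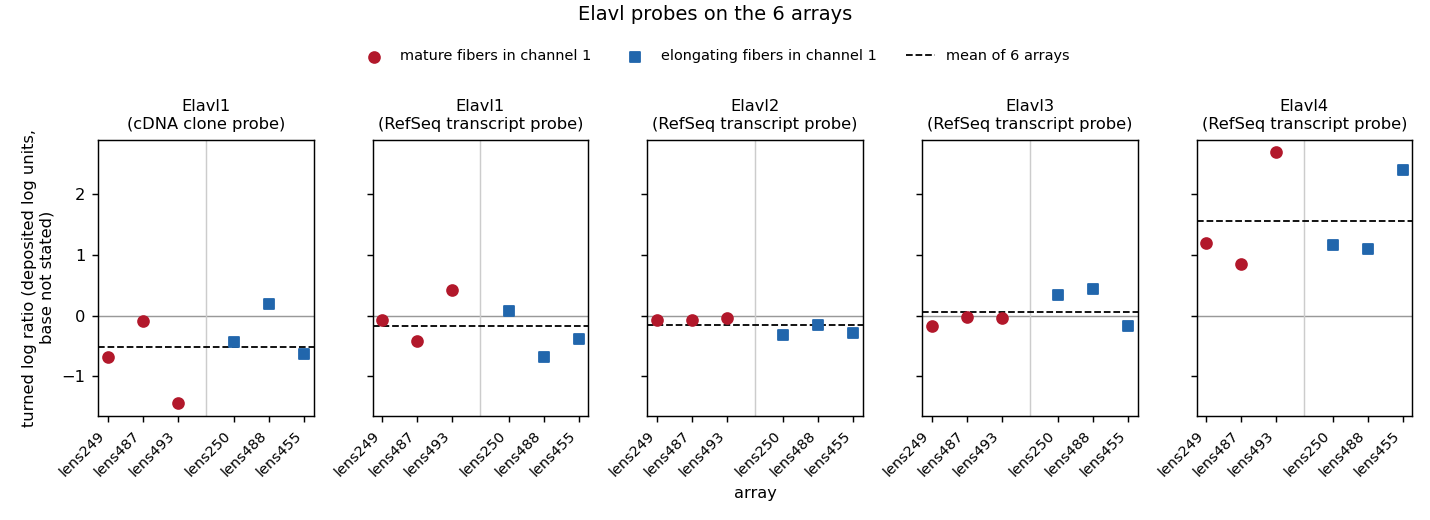
Turned log ratio (vertical axis, deposited log units) of each of the 5 family probes on the 6 arrays (horizontal axis); red circles are arrays with mature fibers in channel 1, blue squares those with elongating fibers in channel 1, and dashed lines are means of 6 arrays. Elavl4 lies between 0.86 and 2.69, Elavl2 and Elavl3 stay near 0, and the 2 Elavl1 probes move apart on lens493.

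Elavl1, the ubiquitous HuR, lay on the other side with a much smaller mean. Averaged over its 2 probes, it had -0.38, -0.25 and -0.51 on lens249, lens487 and lens493, and -0.18, -0.25 and -0.51 on lens250, lens488 and lens455. All 6 averages were below 0, and those on lens493 and lens455 were the furthest from it, which neither probe alone showed. The mean was -0.34 ± 0.14 (SD, n = 6; 95% interval from limma -0.51 to -0.18), a 1.27-fold difference if log2. In limma across all features Elavl1 did not pass (unadjusted p = 0.0019, adjusted p = 0.071).

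The small SD of Elavl1 hid a disagreement between its probes. The probe annotated to a cDNA clone had -0.69, -0.09 and -1.44 on lens249, lens487 and lens493, and -0.44, 0.19 and -0.63 on lens250, lens488 and lens455. The probe annotated to the RefSeq transcript had -0.07, -0.42 and 0.43 on lens249, lens487 and lens493, and 0.09, -0.68 and -0.39 on lens250, lens488 and lens455. The 2 probes differed most on lens493, where they had opposite signs, and their SDs over the arrays were 0.56 and 0.40, each larger than that of their average. The clone probe averaged -0.52 and was above 0 on 1 array, and the RefSeq probe averaged -0.17 and was above 0 on 2. Their difference, clone minus RefSeq, was -0.34 ± 0.94 (SD, n = 6; two-sided exact sign-flip permutation test, p = 0.50, smallest possible 0.031). Taken one by one, neither passed in limma (adjusted p = 0.24 and 0.61). The steadiness of the Elavl1 mean therefore rests on averaging probes that moved in opposite ways, and its size is uncertain.

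Elavl2, the HuB protein of neurons and germ cells, was close to 0 with one sign throughout. Its values were -0.08, -0.08 and -0.04 on lens249, lens487 and lens493, and -0.32, -0.15 and -0.29 on lens250, lens488 and lens455. All 6 were below 0, with a mean of -0.06 on the 3 arrays with mature fibers in channel 1 and -0.25 on the other 3. The mean was -0.16 ± 0.12 (SD, n = 6; 95% interval -0.29 to -0.02), and Elavl2 did not pass in limma (unadjusted p = 0.027, adjusted p = 0.24).

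Elavl3, the HuC protein of neurons, had no common sign. It had -0.17, -0.02 and -0.04 on lens249, lens487 and lens493, and 0.35, 0.44 and -0.16 on lens250, lens488 and lens455. The 2 orientations overlapped, since lens455 lay with the low values. The mean was 0.07 ± 0.26 (SD, n = 6; 95% interval -0.15 to 0.28), with limma adjusted p = 0.78. On the arrays with mature fibers in channel 1 alone its mean was -0.07, and on the others 0.21.

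Among these 3 members, whose values were not the reason for the choice, 0 passed an adjusted p of 0.05 in limma and 2 had an unadjusted p under 0.05. Over all features 1.73% passed and 16.2% had an unadjusted p under 0.05. Elavl1 and Elavl2 were below 0 on all 6 arrays, as were 5.65% of all features. Elavl4 was above 0 on all 6, as were 3.52% of all features, and 9.17% had one sign throughout. With 3 genes, such counts are not a result about the family.

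In order of their means the family ran Elavl4, Elavl3, Elavl2 and Elavl1. Between the 3 lower members, 3 differences were tested over the 6 arrays with two-sided exact sign-flip permutation tests. Elavl1 minus Elavl3 was -0.41 ± 0.19 and below 0 on 6 of 6 arrays (exact p = 0.031, the smallest possible, and 0.094 after Benjamini-Hochberg adjustment). Elavl1 minus Elavl2 was -0.19 ± 0.20 (exact p = 0.094, adjusted 0.14) and Elavl2 minus Elavl3 was -0.23 ± 0.32 (exact p = 0.16, adjusted 0.16). No difference between these members passed after adjustment.

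The effect of dye orientation was fitted as a separate term from the difference between the fiber stages, and it was small for Elavl4. It is the part of a ratio that stays with the channel when the fiber stages are exchanged between channels. Elavl4 averaged 1.58 on the 3 arrays with mature fibers in channel 1 and 1.55 on the 3 with elongating fibers in channel 1. That is a dye effect of 0.02, given as a description with no test. Its 2 highest arrays, lens493 and lens455, fall in opposite orientations. Dye effects were -0.03 for Elavl1, 0.09 for Elavl2 and -0.14 for Elavl3 (limma adjusted p = 0.89, 0.54 and 0.57). Of all features 0% passed for a dye effect in limma, and 12.6% had an unadjusted p under 0.05.

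**Figure D2:**
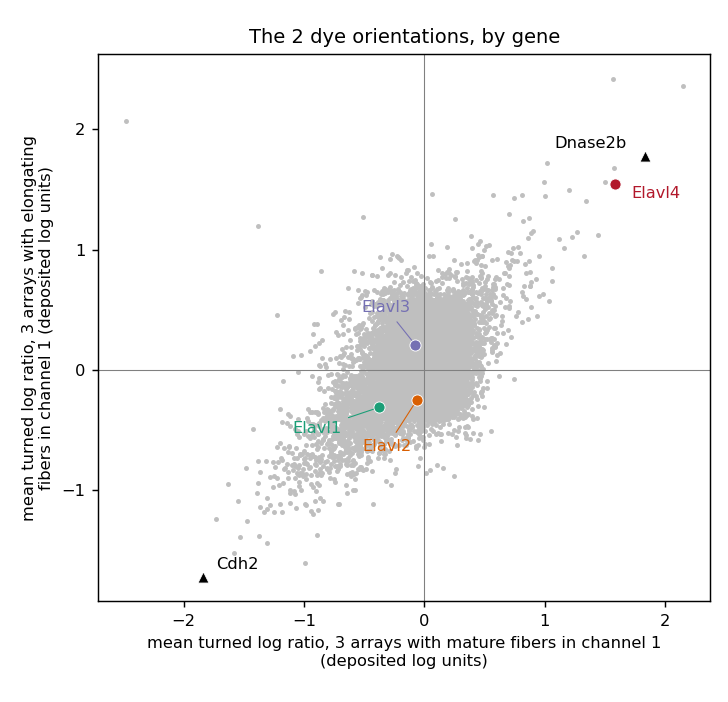
Mean turned log ratio of each named gene (grey points) on the 3 arrays with mature fibers in channel 1 (horizontal axis) and the 3 with elongating fibers in channel 1 (vertical axis), both in deposited log units, with family members as coloured circles and Dnase2b and Cdh2 as triangles. Elavl4 lies at 1.58 and 1.55 near Dnase2b, and the other 3 members lie within the mass of genes around 0.

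The named genes whose 6 ratios were nearest to those of Elavl4 were found by the root mean square difference over the 6 arrays. The nearest was Rnf180, a ubiquitin ligase, at 0.32, followed by Plekhs1 at 0.36, Rubcn, which restrains autophagy, at 0.57, Dnase2b at 0.58 and the klotho relative Lctl at 0.61. Next came Tecrl at 0.66, Ndel1, a partner of the motor dynein, at 0.73, Xist, the RNA of X chromosome inactivation, at 0.75, Btf3l4 at 0.76 and Zfp354a at 0.77. Likeness over 6 arrays says nothing of shared function or control. By the largest difference on any 1 array, 7 of these 10 were again among the 10 nearest.

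Of the 10 nearest genes 8 had, like Elavl4, their 2 highest values on lens493 and lens455, and Lctl and Ndel1 did not. The measure of likeness used these arrays too, so the count is a description. Rnf180 had 1.48, 1.17 and 2.09 on lens249, lens487 and lens493, and 1.32, 1.25 and 2.46 on lens250, lens488 and lens455, so lens493 and lens455 stood apart. Plekhs1 had 1.35, 0.69 and 1.99 on lens249, lens487 and lens493, and 1.33, 0.87 and 2.02 on lens250, lens488 and lens455, with the same 2 arrays apart. Dnase2b was more even, with 1.998, 1.40 and 2.09 on lens249, lens487 and lens493, and 1.81, 1.49 and 2.06 on lens250, lens488 and lens455. Xist differed most between arrays: 0.30, 0.00 and 2.04 on lens249, lens487 and lens493, and 0.43, 0.17 and 2.46 on lens250, lens488 and lens455. Its values were near 0 on the 4 arrays on which Elavl4 was lower and above 2 on lens493 and lens455. Whether what moved Xist on these 2 arrays also bears on Elavl4 was not tested.

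**Figure D3:**
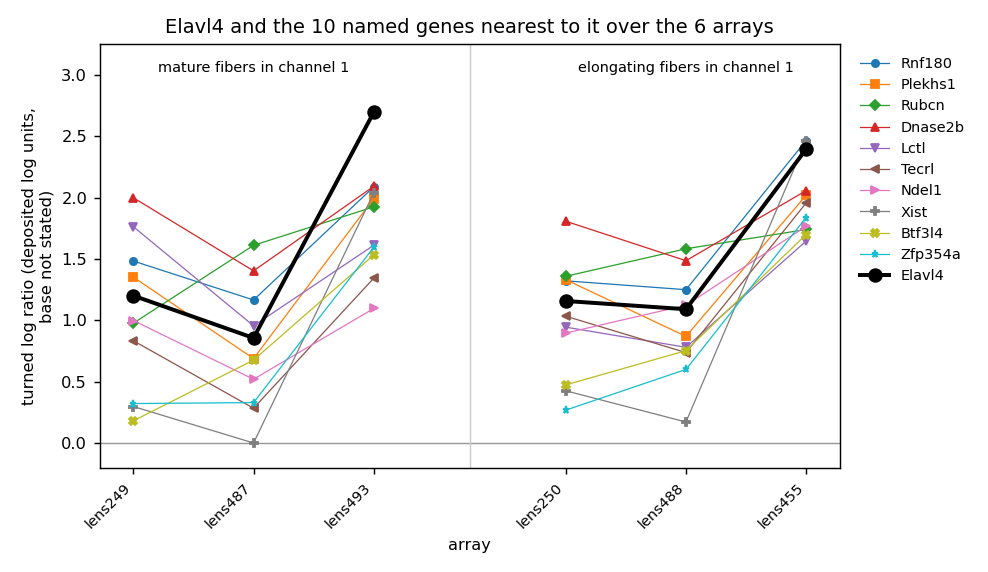
Turned log ratio (vertical axis, deposited log units) on the 6 arrays (horizontal axis, grouped by dye orientation) of Elavl4 (thick black line) and the 10 named genes with the smallest root mean square difference from it (thin lines). Lines join the values of 1 gene within an orientation and mark no order of arrays. All 11 genes lie above 0, and 9 of them, all but Lctl and Ndel1, have their 2 highest values on lens493 and lens455.

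The measured protein-coding genes next to Elavl4 on chromosome 4 of GRCm38.p6 lay nearer to 0 and did not pass. Dmrta2 had 0.08 ± 0.41 and Agbl4 had 0.32 ± 0.61 (SD, n = 6; limma adjusted p = 0.85 and 0.49). The neighbours of the other members also did not pass, with means from -0.16 for Prkcsh, beside Elavl3, to 0.22 for Izumo3, beside Elavl2. These neighbours were looked up after the values of the family were seen.

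Other proteins that bind AU-rich elements compete or cooperate with ELAV proteins on the same messages. Of 26 measured on a list of 30, 3 passed in limma, all on the negative side, opposite to Elavl4. On that side 1.36% of all features passed, and on the positive side 0.372%. With the arrays averaged into the 3 pairs of opposite orientation above, 0 of all features passed in limma, so neither these calls nor those of any list below held there. Rbm3, a cold-inducible protein, had -1.23 ± 0.35 (adjusted p = 0.014), Hnrnpdl -0.79 ± 0.35 (adjusted p = 0.043) and Hnrnpa1 (2 probes averaged), a splicing and export factor, -0.34 ± 0.10 (adjusted p = 0.035). Each was below 0 on all 6 arrays. Tia1, a stress granule protein that represses translation, had -0.63 ± 0.47 and did not pass (adjusted p = 0.093). The destabilising protein Zfp36l1 had 0.38 ± 0.33 and did not pass (adjusted p = 0.15). The median of the list was -0.20 and 18 of 26 were below 0, against a median of 0.003 and 9614 of 19624 below 0 over all features. In limma 11 of the 26 had an unadjusted p under 0.05, 10 negative and 1 positive, against 16.2% of all features. Without lens488, 0 of the 26 passed, and without any other single array 1 did, on the negative side.

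Of 24 measured partners and modifiers of Elavl1 on a list of 26, 1 passed, on the negative side, against 1.36% of all features on that side. It was Xpo1, the export receptor CRM1, which carries proteins out of the nucleus, among them ligands of Elavl1. It had -1.07, -0.90 and -0.37 on lens249, lens487 and lens493, and -0.69, -0.58 and -0.23 on lens250, lens488 and lens455, below 0 throughout and nearest to 0 on lens493 and lens455. Its mean was -0.64 ± 0.32 (limma adjusted p = 0.043), and it passed in 0 of the 6 fits without 1 array (adjusted p = 0.0504 to 0.16). Carm1, which methylates Elavl1, had 0.23 ± 0.19, above 0 on 6 arrays, and did not pass (adjusted p = 0.17). Kpna2, an import receptor, had -0.22 ± 0.31 and Anp32e, a relative of the Elavl1 ligand Anp32a, had 0.23 ± 0.32, and neither passed (adjusted p = 0.37 and 0.38). The median of the list was -0.03, and 2 of the 24 had an unadjusted p under 0.05 in limma, 1 on each side, against 16.2% of all features.

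The machinery of deadenylation, decapping and decay, which acts on AU-rich messages that ELAV proteins protect, did not pass. Of 45 measured genes 0 passed in limma and 4 had an unadjusted p under 0.05, against 1.73% and 16.2% of all features. The decapping activators Lsm7 and Lsm5 had -0.39 ± 0.30 and -0.39 ± 0.35 (adjusted p = 0.064 and 0.21), and the exosome subunit Exosc1 had 0.29 ± 0.50 (adjusted p = 0.26). Btg2, which recruits deadenylases, had -0.42 ± 0.55 (adjusted p = 0.31). The members lay between -0.42 and 0.29, with a median of 0.01.

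Of 29 measured genes from RNA-binding protein families listed as neuron-enriched, though not every gene in them is, 1 passed on each side. Rbfox1, a splicing factor of neurons and muscle, lay with Elavl4, in a narrow range. It had 0.64, 0.64 and 0.50 on lens249, lens487 and lens493, and 0.46, 0.81 and 0.76 on lens250, lens488 and lens455. Unlike Elavl4 it was not highest on lens493, and its mean was 0.63 ± 0.14 (limma adjusted p = 0.016). On the positive side 0.372% of all features passed. Qk, the RNA-binding protein Quaking, lay opposite at -0.88 ± 0.30 (adjusted p = 0.022). Mbnl1, a muscleblind splicing factor, had -0.49 ± 0.33 and Msi2, a Musashi protein, -0.38 ± 0.16. Both were below 0 on all arrays and did not pass (adjusted p = 0.064 and 0.068). The median of the list was -0.05. In limma 6 of the 29 had an unadjusted p under 0.05, 5 negative and 1 positive, against 16.2% of all features. Rbfox1 passed in 2 and Qk in 0 of the 6 fits without 1 array, with adjusted p up to 0.083 and 0.096.

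Messages reported elsewhere as bound by ELAV proteins passed only on the side opposite to Elavl4, and most did not pass. Of 45 measured on a list of 50, 3 passed, all negative. On that side 1.36% of all features passed, and on the positive side 0.372%, so calls were mostly negative in general. Without lens487, lens250 or lens488, 0 of the 45 passed, and 1 did without each of the other arrays. Marcks, an actin regulator at the membrane, had -1.27, -1.11 and -0.63 on lens249, lens487 and lens493, and -1.06, -1.06 and -0.52 on lens250, lens488 and lens455. Its values were nearest to 0 on lens493 and lens455, and its mean was -0.94 ± 0.30 (limma adjusted p = 0.019). Ptma, prothymosin alpha, had -0.64 ± 0.21 (adjusted p = 0.022) and the deacetylase Hdac1 -0.50 ± 0.22 (adjusted p = 0.045). Cycs, cytochrome c, had -0.39 ± 0.20 and did not pass (adjusted p = 0.056). Cdc42, a GTPase of the actin skeleton, lay furthest out of the list at -0.9995 ± 0.52, with its lowest values on lens493 and lens455, and did not pass either (adjusted p = 0.056). Gap43, a growth cone protein and a standard Elavl4 target in neurons, had -0.01 ± 0.26 (adjusted p = 0.96). The median of the list was -0.03 and 30 of 45 were below 0, against 9614 of 19624 features. In limma 14 of the 45 had an unadjusted p under 0.05, 11 negative and 3 positive, against 16.2% of all features. Binding is reported for other tissues and was not measured here.

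**Figure D4:**
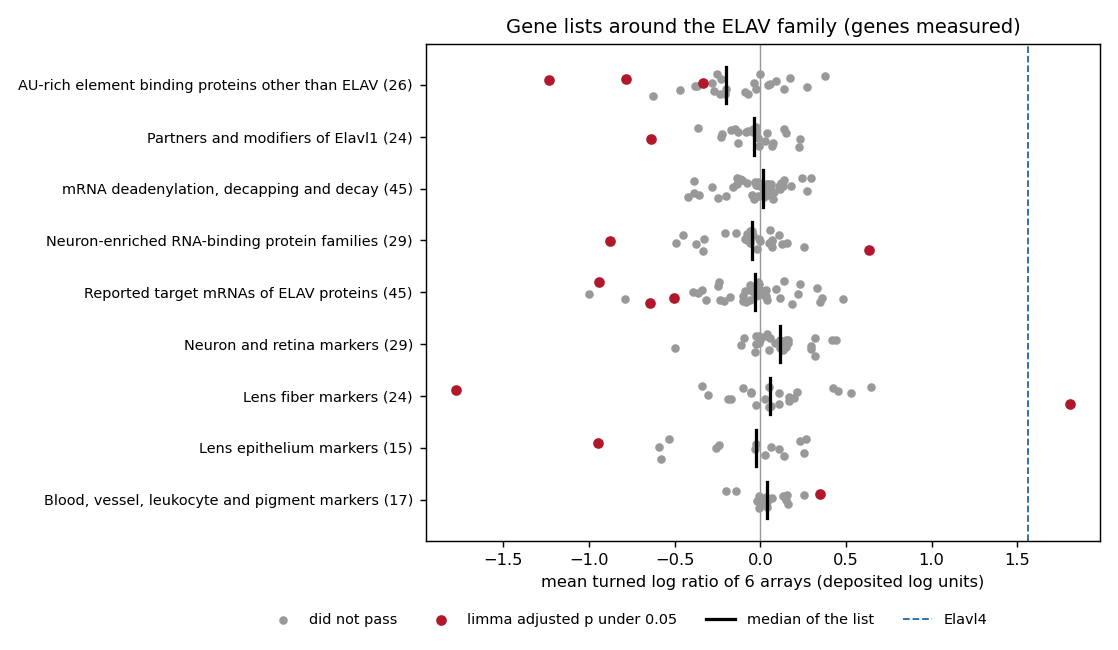
Mean turned log ratio over 6 arrays (horizontal axis, deposited log units) of the measured genes of each list (rows, number measured in brackets); red points passed a limma adjusted p of 0.05, grey points did not, black bars are list medians and the dashed blue line is Elavl4. Elavl4, chosen for its difference, lies at 1.57, beyond every listed gene except Dnase2b on the positive side. Some lens fiber markers hold ratios shared with other features.

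Markers of other cells that a dissected zone could hold were read beside the ratio of Elavl4. Of 29 neuron and retina markers 0 passed in limma and 6 had an unadjusted p under 0.05, against 1.73% and 16.2% of all features. Of the 29 markers 20 were above 0, against 10008 of 19624 features. The markers ranged from -0.50 to 0.44 with a median of 0.11, against a median of 0.003 over all features. Their mean lay between -0.04 on lens249 and 0.17 on lens493, with 0.08 on lens455. The highest was Tubb3, a neuronal tubulin, at 0.44 ± 0.44, and Map2, of dendrites, had 0.32 ± 0.33. Gnat1, of rods, had 0.30 ± 0.23, Rlbp1, of Müller glia, 0.32 ± 0.28 and Uchl1, of neurons, -0.50 ± 0.51. Elavl4, chosen for its difference, was further from 0 than each of the 29, which describes it and supports nothing further.

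Of 15 lens epithelium markers 1 passed, on the negative side, against 1.36% of all features. An unadjusted p under 0.05 was found for 6, of which 5 were negative, against 16.2% of all features. The collagen Col4a1 passed at -0.95 ± 0.38 (limma adjusted p = 0.030). Pax6, the eye master regulator, had -0.59 ± 0.43 and the matrix protein Sparc -0.53 ± 0.62, and neither passed (adjusted p = 0.13 and 0.062). The receptor Notch2 lay opposite at 0.27 ± 0.19 and did not pass (adjusted p = 0.13). The median of the list was -0.03, and its mean was -0.26 on both lens493 and lens455, against -0.30 to 0.29 on the other 4 arrays.

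Of 17 blood, vessel, leukocyte and pigment markers 1 passed, on the positive side, against 0.372% of all features. It was Laptm5 of leukocytes, at 0.35 ± 0.21 (limma adjusted p = 0.039). Tyr and Tyrp1, of pigment cells, had 0.26 ± 0.35 and 0.15 ± 0.32, and Vwf, of vessels, had 0.16 ± 0.17. None of these 3 passed (adjusted p = 0.32, 0.38 and 0.38). The median of the list was 0.04, with a range of -0.20 to 0.35. Of the 17 markers, 12 were above 0 and 5 below, against 10008 of 19624 features above 0. Laptm5 alone had an unadjusted p under 0.05 in limma, against 16.2% of all features.

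Of 24 lens fiber markers Dnase2b and Cdh2 passed, on opposite sides, against 1.73% of all features. In limma 3 of the 24 had an unadjusted p under 0.05, 2 positive and 1 negative, against 16.2% of all features. The filament protein Bfsp2 had 0.53 ± 0.46 and the crystallin Crygs -0.34 ± 0.47, and neither passed (adjusted p = 0.18 and 0.31). Many fiber markers, most of them crystallins, held one identical ratio on an array: 10 of 24 on lens250, 8 on lens493 and 5 on lens249. The values shared in this way were -0.44, 0.18 and -0.48. They were found at 75, 50 and 22 of all features on those arrays, so they may not be measurements of the single genes, and no mean of the fiber markers per array is given. The ratio of Elavl4 was shared with at most 1 other feature on any array. Few features lie so far from 0, so this does not check its measurement. Near 0 sharing is common: on lens493 Elavl2 shared its ratio with 40 other features and Elavl3 with 58. The part of any of these cell types in the ratio of Elavl4 was not tested.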

How the data were processed

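The authors deposited 1 log ratio per probe and array for 22575 probes with 0 missing values; array medians lay between -0.006 and 0.025. The sources used here give neither base, numerator channel, scanner software, background correction nor normalization. Spot intensities were not analysed here, so signal over background is unknown and precision is limited by the number of arrays. Per the labels, every array held both fiber stages, with 3 arrays per dye orientation. Unit and normalization being unstated, the values were kept in deposited log units.

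Symbols came from the platform's annotation: 18218 probes had 1 symbol, 16 several and 4341 were unlisted. Of the first, 18175 matched the GRCm38.p6 gene table by gene ID, including the 5 family probes. Identical rows were counted once, and 1032 unlisted probes in sets of at least 49 identical rows were left out. Each array was turned, centred on its median and averaged over the probes of a gene, which left 19624 features. Differences were tested with limma 3.58.1 under R 4.3.3, two-sided, with a dye term fitted by lmFit and moderated by eBayes. P-values were Benjamini-Hochberg adjusted over all features, threshold 0.05. The fit was tried on simulated arrays drawn independently of one another, which cannot check calls on arrays that may share extracts. SDs are over 6 turned arrays and include the dye effect. Named genes are the family, the 10 genes nearest to Elavl4, the 4 lowest p of each of 9 lists, Dnase2b and Cdh2, with Gap43, Cdc42, Zfp36l1, Tubb3 and the chromosomal neighbours added after their values were seen. Alternatives covered centring, scaling, dye term, array weights, robust eBayes, averaged pairs, single probes, each orientation and each array left out. The members and lists were chosen with earlier results of these data known. Figures were drawn with matplotlib 3.10.9.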

Additional observations from a re-analysis of the deposited data

Results flagged for a closer look

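Among 49 named genes, 1 had a single turned ratio far from the other 5. Kpna2, an import receptor for nuclear proteins, had 0.37 on lens249, with mature fibers in channel 1, where the other arrays lay between -0.47 and -0.17. About 1 in 20 genes meets this by chance, which is 2.45 of 49. None of the 4 ELAV genes had such a value.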

How the results depend on the processing

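Elavl4 stayed on the positive side in all 16 alternatives, with means from 1.08 (without lens493 and lens455, an alternative added after the data were seen) to 1.75, and from 1.29 to 1.75 without 1 array. Elavl1 and Elavl2 stayed below 0 and did not pass in limma in any alternative (adjusted p from 0.054 to 0.61 and from 0.19 to 0.72). Elavl3 did not pass either (adjusted p from 0.30 to 0.98) and reversed to -0.0743 on the arrays with mature fibers in channel 1 alone. The count of features past the threshold, 339 as reported, moved most: 656 with array weights, 69 without lens493 and lens455, and 0 in each orientation alone (unadjusted p under 0.05 in limma for 2609 and 2670). Leaving out 1 array gave 16 (lens488 out) to 117 (lens249 out), with 38 for lens487, 71 for lens493, 84 for lens455 and 102 for lens250. The labels give no replicate numbers that pair arrays. With 3 averaged pairs as a replicate block (lens249 with lens250 and lens487 with lens488, by consecutive titles, and the remaining lens455 with lens493) 0 features passed in limma, 2395 had an unadjusted p under 0.05, and Elavl1 had an adjusted p of 0.31. No feature passed for a dye effect in the 12 alternatives run for it. Of the listed genes named above as passing, Dnase2b passed in 6, Rbm3 in 5, Cdh2 in 3, Marcks and Rbfox1 in 2, Ptma and Col4a1 in 1, and Hnrnpa1, Hnrnpdl, Xpo1, Qk, Hdac1 and Laptm5 in 0 of the 6 fits without 1 array, and all kept their sign. Fewer arrays leave the fit fewer degrees of freedom. Signal over background is unknown, which limits what can be said of any single ratio.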
